A study of Rattus norvegicus with 9 samples.

Results

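The comparison described here set the hippocampal RNA of rats carrying a combined diabetes and stress model (Model) against that of normal control rats (Ctrl). It took the 3 Model and the 3 Ctrl libraries of the series, 6 of its 9 libraries, and all genes that passed a count filter. All rats were male Sprague-Dawley, 6 to 8 weeks old at the start, and were given 1 week to acclimatize. Model rats ate a high-fat diet for 4 weeks and then received a single intraperitoneal injection of 50 mg/kg streptozotocin, a toxin of the insulin-producing beta cells. Rats whose fasting glucose held at 16.7 mmol/L or above went on to 5 weeks of chronic unpredictable mild stress. For Ctrl, the labels give neither a diet nor a sham injection, so diet, streptozotocin, hyperglycaemia and stress cannot be told apart in this design. Poly(A) RNA of the hippocampal region was made into dUTP strand-specific libraries. Nothing in the labels ties a library to an animal, so the p-values speak for the variation among these 6 libraries alone, and that variation may be technical.

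The hippocampus is built of excitatory pyramidal neurons in fields CA1 to CA3 and granule neurons in the dentate gyrus, with scattered inhibitory interneurons. Oligodendrocytes wrap its axons in myelin, a membrane made of a small set of very abundant proteins and lipids. It borders the lateral ventricle, where the choroid plexus secretes cerebrospinal fluid. It is also rich in receptors for insulin and for stress steroids.

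The 6 libraries held 631119 to 807513 counts each, with a median of 20 to 30 counts per tested gene, so small changes of scarce genes were not detectable at this depth. Of the markers of hippocampal excitatory neurons, Slc17a7, the vesicular glutamate transporter gene, had 1453 counts over the Ctrl libraries and 1165 over the Model libraries. Neurod6, a transcription factor gene of pyramidal neurons, had 188 and 173. The granule neuron marker Prox1 was close to absent at 3 and 2 counts, and the striatal markers Drd1 and Drd2 had at most 2 counts in a group. The strand setting of the authors' counting is not given in the sources used here. Mt-nd6, the mitochondrial gene that lies on the strand opposite to the other protein genes of that genome, stood at 26283 to 56683 FPKM (reads scaled to gene length and library total), against 1212 to 7997 FPKM for the other 12 mitochondrial genes. Slc1a2, the main glutamate transporter gene of astrocytes, had only 42 and 28 counts. A count under a gene's name may therefore hold reads of a gene on the other strand.

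Of 6569 genes tested, 851 (13.0%) differed between Model and Ctrl at an adjusted p under 0.05 (edgeR quasi-likelihood test, Benjamini-Hochberg adjustment). In Model 468 genes were higher (7.12%) and 383 were lower (5.83%). Rises were small, with a median log2 fold change of 0.45 among the genes called higher, and falls were larger, with a median of -0.78. Of the called genes, 36 rose and 105 fell by at least 2-fold, together 2.15% of the genes tested. Over all genes tested the median log2 fold change was -0.03, and 1773 genes (27.0%) had groups of libraries that did not overlap. Among the 851 called genes 797 had such groups, so a lack of overlap adds little to a call. The balance of rises and falls differed between settings. Of the other scalings, size factors of the DESeq2 type (RLE) gave 483 higher and 353 lower, and library totals gave 277 and 620 and moved the median of all genes to -0.13. With another test, it was 169 and 324 by limma on log2(FPKM + 1) and 283 and 85 by DESeq2, and with no count filter it was 498 and 263. Calls also depended on single libraries: without Ctrl 1 there were 241 lower genes, and without Model 3 there were 242.

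**Figure D1:**
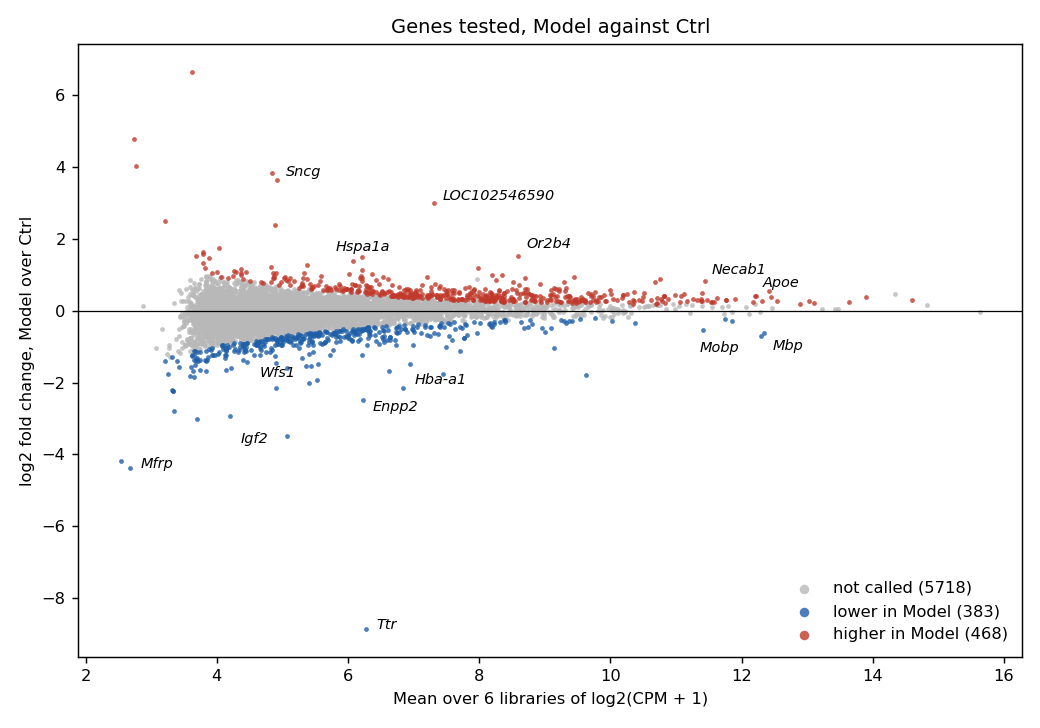
Each point is 1 of the 6569 genes tested; the x axis is the mean over the 6 libraries of log2(CPM + 1), where CPM is the count scaled to library size (TMM), and the y axis is the log2 fold change of Model over Ctrl. Blue genes (383) were called lower and red genes (468) called higher; Ttr lies alone at -8.86, and the myelin genes Mbp and Mobp are among the abundant genes that fell.

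Ttr and 5 further genes of the choroid plexus fell in Model. Ttr, which encodes the thyroid hormone and retinol carrier transthyretin, stood at 1510.3, 1454 and 1477 CPM (counts scaled to library size by TMM) in Ctrl 1 to 3 and at 3.15, 3.28 and 2.67 CPM in Model 1 to 3. All 3 Model libraries lay far below the Ctrl libraries (-8.86 ± 0.59 on the log2 scale, adjusted p = 3.99e-71). Changes given below as a value with its SE are log2 fold changes of Model over Ctrl. Of the choroid plexus list, 6 of the 9 tested members fell and none rose. Besides Ttr these were Mfrp, Clic6, Igf2, Enpp2 and Igfbp2, with log2 fold changes from -4.39 to -2.02. Igfbp2, a carrier of insulin-like growth factors, stood at 85.8, 75.5 and 91.1 CPM in Ctrl and 23.6, 16.4 and 21.3 CPM in Model. The other 3 tested members were not called: the sodium pump subunit gene Atp1b1 was at -0.14, the ezrin gene Ezr at -0.30 and the carbonic anhydrase gene Car12 at 0.05, and all of these are also expressed outside the choroid plexus. The list's median was -2.49, against -0.03 for all genes tested. The count filter keeps a gene that is abundant enough in a single group. Ttr and Clic6 (0, 0 and 2 counts in the Model libraries) passed it through their Ctrl counts alone. The share of falls and the median of this list therefore depend in part on the filter.

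The 20 further members of that list were too scarce to be tested, and all 20 were lower in Model by mean CPM. Together they had 250 counts in Ctrl and 36 in Model, and 11 of them had counts in Ctrl and none in Model. Sostdc1, a secreted antagonist of bone morphogenetic proteins, had 9, 18 and 8 counts in the Ctrl libraries and 0 in each Model library. Slc13a4, a sulfate transporter gene, had 34 counts in Ctrl and 1 in Model, and Slc4a5, a bicarbonate cotransporter gene, had 17 and 0. Of the other transporters and tight-junction genes of this epithelium, Aqp1 had 8 and 0 counts and Cldn2 had 10 and 0. Genes of motile cilia, which mark the neighbouring ependyma, had 145 counts over 18 untested genes in Ctrl and 113 in Model.

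Single genes of meninges and blood also fell. Ptgds, which encodes the prostaglandin D synthase of meninges and oligodendrocytes, stood at 168, 179 and 182 CPM in Ctrl and 86.6, 85.4 and 97.4 CPM in Model. The groups did not overlap (-0.97 ± 0.13, adjusted p = 5.40e-09). It was the 1 called gene among 3 tested genes of the meningeal and fibroblast list, whose median was 0.39. The collagen VI genes Col6a1 and Col6a2 were at 0.39 ± 0.21 and 0.46 ± 0.22 and were not called. Of the 18 untested members of that list 12 were lower in Model by mean CPM, and together the 18 had 247 counts in Ctrl and 108 in Model. The fibrillar collagen genes Col1a1, Col1a2 and Col3a1 went from 43 to 10, from 21 to 2 and from 30 to 3 counts, too few to be tested. Among blood genes, Hba-a1, an adult alpha globin gene, had 239, 241 and 238 CPM in Ctrl and 52, 60.7 and 49.4 CPM in Model (-2.15 ± 0.15, adjusted p = 7.70e-26), and Hbb, a beta globin gene, fell by 1.92. These were the 2 called genes among 5 tested red blood cell genes. Globin genes have near-identical copies, so counts may be split between them. None of the 8 tested endothelial and pericyte genes was called. Ace, which encodes angiotensin-converting enzyme and is abundant in choroid plexus and vessels, went from 47 to 8 counts (-2.23 ± 0.55, adjusted p = 1.97e-04).

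Myelin formed the most abundant group that fell. Mbp, the myelin basic protein gene that compacts the membrane, had 6527, 6295 and 6436 CPM in Ctrl and 4110.0, 4104 and 4260.2 CPM in Model, with a tight spread in both groups (-0.63 ± 0.07, adjusted p = 5.79e-13). Every Model library lay below every Ctrl library. Mobp, which encodes a second basic protein of compact myelin, went from 6384, 6581 and 6241 to 4571, 3715 and 3537 CPM (-0.70 ± 0.07, adjusted p = 3.25e-14). In bulk RNA, fewer cells of a type and less RNA per cell cannot be told apart.

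The falls covered structural proteins, lipid enzymes and surface proteins of the sheath alike. Of the 29 tested genes of the myelin list 17 fell and 1 rose, and the median log2 fold change was -0.64. Among lipid enzymes, Ugt8, which makes galactosylceramide, had 54.8, 87.2 and 46.3 CPM in Ctrl and 22, 11.5 and 9.34 CPM in Model (-2.16 ± 0.30), and Fa2h, which hydroxylates the fatty acids of myelin lipids, went from 46 to 8 counts (-2.20 ± 0.55). Mag, the adhesion protein gene of the inner myelin layer, had 253, 257 and 254 CPM in Ctrl and 123, 131 and 125 CPM in Model (-1.01 ± 0.11, adjusted p = 2.96e-12). Cnp, a phosphodiesterase gene of uncompacted myelin, fell by 1.13. Mal, a raft proteolipid gene, fell by 1.48, and Opalin, a glycoprotein gene of the sheath, by 1.13. Further falls were those of Cldn11, Tspan2, Gpr37, Qki, Car2, Ermn, Mog and Tf, from -1.76 for Cldn11 to -0.32 for Tf. Of the 18 calls 14 held without any single library and in every alternative setting that tested the gene, 19 to 21 of the 22. One setting leaves out the myelin list by design. Mbp and Mag were also left out of the settings for genes over 5 kb from another gene and with no overlapping opposite-strand gene. The call of Qki was lost without Ctrl 1, Model 2 or Model 3, and that of Ermn without Ctrl 2 or Model 3. That of Mog was lost without Ctrl 2, Ctrl 3, Model 1 or Model 3, and that of Tf without Ctrl 2, Model 1 or Model 2. The highest adjusted p over the settings was 0.073 for Qki, 0.0973 for Ermn, 0.304 for Mog and 0.506 for Tf.

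**Figure D2:**
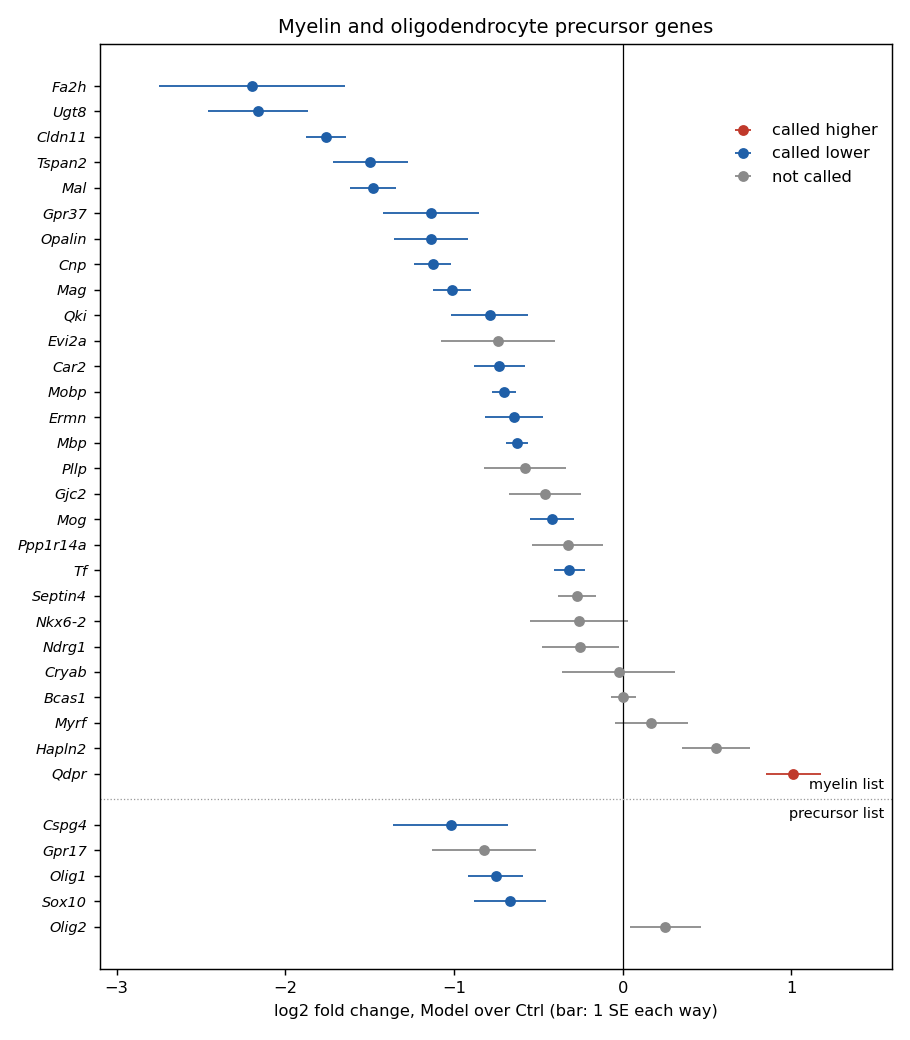
Log2 fold change of Model over Ctrl (x axis) for 28 tested myelin genes and the 5 tested genes of the oligodendrocyte precursor list, each with a bar of 1 SE each way. Of the myelin genes drawn 16 lie left of zero as called genes (blue), and Qdpr is called on the right (red).

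Not every gene of the lineage fell. Bcas1, a gene of newly formed and mature oligodendrocytes, had 945, 901 and 917 CPM in Ctrl and 905, 895 and 968 CPM in Model, groups that overlapped. Myrf, which encodes the transcription factor that switches on myelin genes, had 61.9, 37.7 and 32.6 CPM in Ctrl and 34.6, 62.4 and 53.4 CPM in Model (0.17 ± 0.22). Olig2 was at 0.25 ± 0.21 and was not called, whereas its neighbour in the genome and in function, Olig1, stood at 97.7, 105 and 102 CPM in Ctrl and 58.3, 59.1 and 62.7 CPM in Model (-0.75 ± 0.16, adjusted p = 2.76e-04). Qdpr, which encodes the dihydropteridine reductase that recycles tetrahydrobiopterin, rose from 51.2, 60.1 and 62.6 to 83.5, 138 and 128 CPM (1.01 ± 0.16, adjusted p = 8.16e-07). The precursor list holds lineage genes such as Olig1 and Olig2, and of its 5 tested members 3 fell, Olig1, Sox10 and Cspg4. The precursor marker Pdgfra had 29 counts in Ctrl and 18 in Model and was too scarce to be tested. The calls of Sox10 and Cspg4 were each lost without any 1 of 4 libraries, among them Ctrl 2, Ctrl 3 and Model 2 (highest adjusted p 0.197 and 0.21).

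Since 17 myelin genes fell together, their promoters were set side by side. RefSeq (GRCr8) gave 15 promoters, each of 300 bases from 250 before to 50 after the start, for 13 of the 17 genes. They were searched on both strands for CTGGCAC, letters that the factor encoded by Myrf is known to bind. A match was found in 4 of the 15 promoters (26.7%), against 1590 of all 33469 promoters in the table (4.75%). ACAAAG, a core of SOX factor sites, matched in 5 of 15 (33.3%) against 18.8% of all promoters. A match is a description of the letters and no evidence of binding. The 4 promoters with CTGGCAC or its complement are shown 5′ to 3′ on the gene's strand with the match in capitals, since these are the members that share the motif. It begins 124, 94, 126 and 17 bases before the start in Cnp, Mag, Mal and Opalin. Their places are chr10:86011254-86011553 (plus strand), chr1:95290995-95291294, chr3:135341374-135341673 and chr1:249858141-249858440 (all minus strand).
Cnp: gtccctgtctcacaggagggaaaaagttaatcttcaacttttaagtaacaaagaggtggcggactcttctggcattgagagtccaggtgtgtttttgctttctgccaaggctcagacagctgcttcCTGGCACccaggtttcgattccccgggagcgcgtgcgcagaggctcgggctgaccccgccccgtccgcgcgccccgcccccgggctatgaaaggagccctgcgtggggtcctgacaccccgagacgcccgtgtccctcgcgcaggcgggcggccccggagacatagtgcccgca
Mag: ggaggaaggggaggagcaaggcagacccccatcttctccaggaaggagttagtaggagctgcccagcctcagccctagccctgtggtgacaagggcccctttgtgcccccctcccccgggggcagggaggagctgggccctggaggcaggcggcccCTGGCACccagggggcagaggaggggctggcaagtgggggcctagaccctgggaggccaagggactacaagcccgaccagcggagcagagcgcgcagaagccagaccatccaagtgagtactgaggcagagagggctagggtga
Mal: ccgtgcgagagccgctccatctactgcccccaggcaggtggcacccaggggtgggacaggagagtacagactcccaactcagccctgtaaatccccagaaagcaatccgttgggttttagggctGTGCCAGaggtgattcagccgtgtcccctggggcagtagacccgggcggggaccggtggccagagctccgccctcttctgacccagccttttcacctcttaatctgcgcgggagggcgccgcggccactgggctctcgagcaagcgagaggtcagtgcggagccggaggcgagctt
Opalin: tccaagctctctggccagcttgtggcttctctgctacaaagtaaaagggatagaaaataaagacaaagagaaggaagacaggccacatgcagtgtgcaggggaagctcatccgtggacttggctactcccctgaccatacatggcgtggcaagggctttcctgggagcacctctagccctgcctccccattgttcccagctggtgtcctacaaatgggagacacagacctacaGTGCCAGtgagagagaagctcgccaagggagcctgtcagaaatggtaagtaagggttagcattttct
All 4 genes fell, by 1.13, 1.01, 1.48 and 1.13 on the log2 scale, and so did 13 members of the list without the letters in the window or without an entry in the table, while Myrf itself was not called.

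Summed marker lists placed these changes in the same libraries. Here and below, list sums are CPM scaled to library totals and not by TMM. The TMM factors were 1.01 to 1.05 in Ctrl and 0.96 to 0.97 in Model, so TMM would place the Model sums higher against Ctrl. The choroid plexus list, of which Ttr and Atp1b1 were the most abundant members in Ctrl, summed to 2873 to 3033 CPM in Ctrl and 802 to 884 CPM in Model, and the myelin list to 17810 to 19112 and 10500.4 to 11274 CPM. Red blood cell genes summed to 596 to 651 and 292 to 329 CPM, and meningeal and fibroblast genes to 339.7 to 376 and 206 to 255 CPM. Ptgds, which is also a gene of oligodendrocytes, made up a large part of the meningeal sum in both groups. No sum of these 4 lists overlapped between the groups, which was not particular to them. Endothelial and pericyte genes, at 770 to 795 CPM in Ctrl and 662 to 692 CPM in Model, did not overlap either. Nor did CA1 genes, at 586 to 629 and 512 to 536 CPM, or, with higher sums in Model, the astrocyte and interneuron lists. Whether the amount of choroid plexus, meninges, blood or white matter in the samples had a part in the other results was not tested. Microglial and complement genes overlapped, at 344 to 369 CPM in Ctrl and 315 to 366 CPM in Model. Cortical, thalamic and striatal genes, at 243 to 260.1 and 221 to 229.8 CPM, did not overlap. Of their 5 tested members 2 were called lower (40.0%, against 13.0% of all genes tested). These were the cortical genes Tbr1 (-1.22) and Fezf2 (-1.32), and each lost its call without any 1 of 3 libraries.

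**Figure D3:**
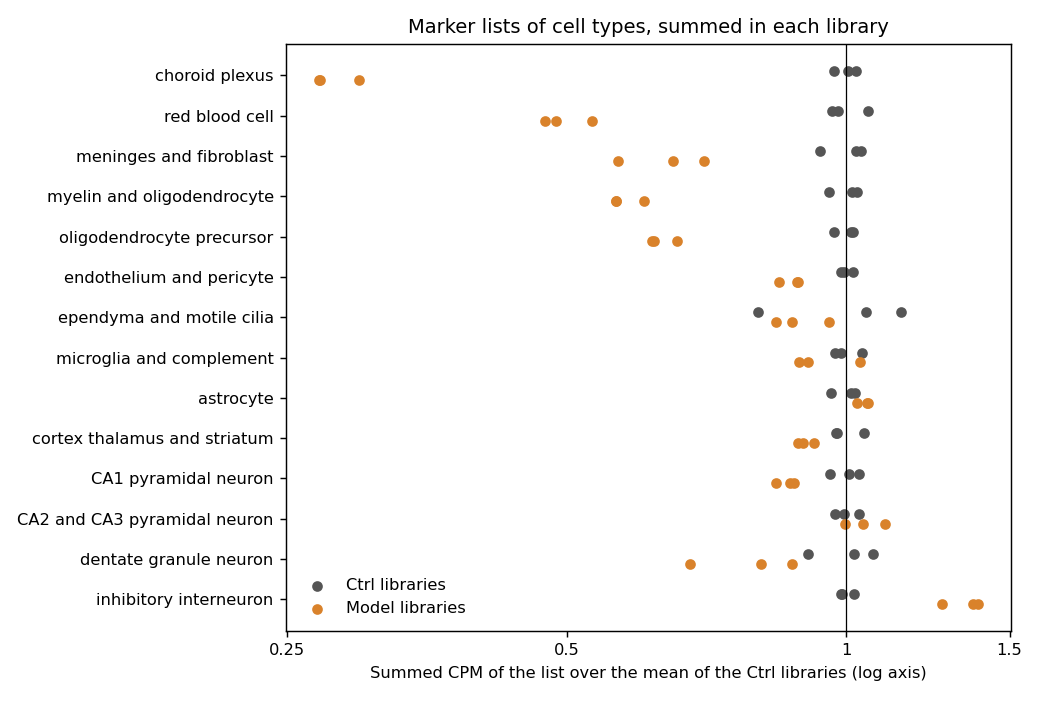
Each point is the summed CPM of a marker list in 1 library over the mean of the 3 Ctrl libraries (log axis), with Ctrl in grey and Model in orange. The sums are scaled to library totals without TMM. Choroid plexus, red blood cell, meningeal, myelin and precursor lists lie to the left in all 3 Model libraries, and the inhibitory interneuron list lies to the right.

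Astrocyte genes did not move one way. The 20 tested members had 1 rise, 4 falls and a median of -0.09, and their sum was 9848 to 10449 CPM in Ctrl and 10486 to 10795 CPM in Model. Apoe, which encodes the main lipid carrier of the brain, rose from 4063, 4105 and 4202 CPM to 5302, 5599.6 and 5613 CPM (0.42 ± 0.07, adjusted p = 7.96e-07; 0.0583 where a fold of at least 1.2 was asked for). Aqp4, the water channel gene of astrocyte endfeet, had 116, 120.3 and 118 CPM in Ctrl and 89.8, 60.7 and 68 CPM in Model (-0.70 ± 0.15, adjusted p = 3.41e-04). Model 1 was the highest of the Model libraries for Aqp4 and still lay below each Ctrl library. Gfap, the intermediate filament gene that rises in reactive astrocytes, overlapped between the groups at 499, 508 and 393 CPM in Ctrl and 408, 448 and 457 CPM in Model. Slc1a3 and Clu were also called lower, and both lost their calls without Ctrl 1 (adjusted p = 0.054 and 0.155).

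Among 11 tested microglial and complement genes 2 were called lower, the lysozyme gene Lyz2 and the invariant chain gene Cd74. Both had under 30 CPM in every library and lost their calls without Model 3. Aif1, the gene of the microglial marker IBA1, had 40 counts in Ctrl and 37 in Model. None of 8 tested genes of inflammation and NF-kB signalling was called, and the cytokine genes Tnf and Il1b were listed at 0 in all 6 libraries.

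Excitatory neuron genes changed singly. Wfs1, which encodes the endoplasmic reticulum protein wolframin and marks CA1, stood at 88.1, 55.4 and 74.8 CPM in Ctrl and 23.6, 21.3 and 29.3 CPM in Model. The groups lay well apart despite the wide Ctrl spread (-1.53 ± 0.23, adjusted p = 5.45e-08), while the other CA1 markers Fibcd1 (175 and 139 counts) and Pou3f1 (87 and 65) were not called. Rgs14, a regulator of G protein signalling that marks CA2, fell by 1.16 (adjusted p = 8.10e-04), and Pcp4, a calmodulin-binding protein gene also known for CA2, rose from 133, 146 and 147 to 227, 212 and 212 CPM (0.61 ± 0.11, adjusted p = 1.96e-05). Of 7 tested dentate granule neuron genes 2 were lower, with a median of -0.56, and of 7 CA1 genes 1 was lower and 1 higher. Both dentate calls were unstable: Sema5a lost its call without Ctrl 2 (adjusted p = 0.0886), and C1ql2 without any single library (adjusted p = 0.0515 to 0.141).

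The interneuron genes that were called all rose. Of 10 tested members 3 rose, none fell and the median was 0.51. For 1 of the 3, RefSeq lists an overlapping gene on the opposite strand. Cck, the cholecystokinin gene of a class of basket cells that some pyramidal cells also express, ran from 191 to 206 CPM in Ctrl and from 285 to 309 CPM in Model (0.57 ± 0.10, adjusted p = 6.11e-06). Dlx1, a transcription factor gene of interneurons, had 41.7, 44.8 and 44.9 CPM in Ctrl and 74, 78.8 and 69.4 CPM in Model (0.75 ± 0.19, adjusted p = 0.00234). Sncg, the gamma-synuclein gene found in a class of cholecystokinin interneurons, had 4, 5 and 11 counts in the Ctrl libraries and 74, 52 and 86 in the Model libraries, which is 3.66 ± 0.34 on the log2 scale (adjusted p = 5.02e-23). In all 3 genes the groups did not overlap. Sst, the somatostatin gene, was at 0.45 ± 0.16 (adjusted p = 0.0527), and Gad1, the gene of the enzyme that makes GABA, was at 87, 81.4 and 88.4 CPM in Ctrl and 92.9, 93.6 and 82.7 CPM in Model, values that overlapped. Gad2, the gene of the second such enzyme, went from 15 to 2 counts and was too scarce to be tested. The list's sum was 648 to 669 CPM in Ctrl and 830.3 to 909 CPM in Model. Its 14 untested members did not share the rise as a group. Together they had 138 counts in Ctrl and 113 in Model, and 6 of them were lower in Model by mean CPM.

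**Figure D4:**
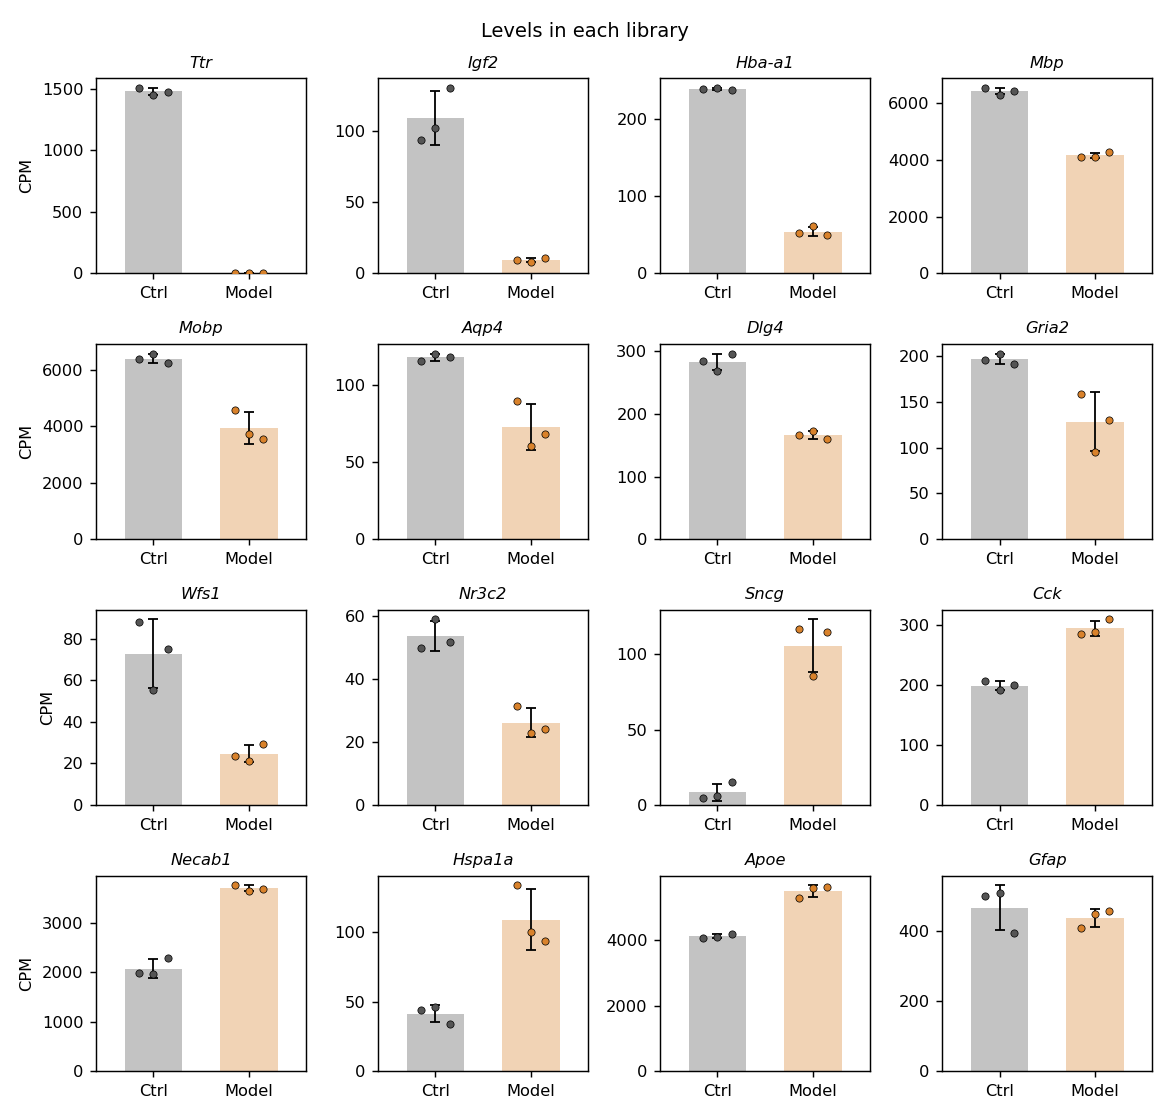
CPM of 16 genes in each of the 6 libraries (points), with the mean (bar) and SD over the 3 libraries of a group; every y axis starts at 0. In each panel except Gfap the Model libraries lie wholly below or wholly above the Ctrl libraries.

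On the postsynaptic side, 6 of 21 tested glutamate receptor and scaffold genes fell and none rose, with a list median of -0.08. Dlg4, which encodes PSD-95, the scaffold that anchors glutamate receptors, had 285, 269 and 295 CPM in Ctrl and 167, 172 and 160.1 CPM in Model, with no overlap (-0.77 ± 0.10, adjusted p = 7.41e-09). Gria2, the AMPA receptor subunit that blocks calcium entry, stood at 195, 203 and 192 CPM in Ctrl and 159, 95.2 and 131 CPM in Model, and its Model libraries spread widely (-0.61 ± 0.12, adjusted p = 9.48e-05). Gria1, its partner subunit, was at -0.72 ± 0.18 and lost its call with DESeq2 (adjusted p = 0.0791). The kinase gene Camk2a, at -0.45 ± 0.12, lost it without Model 2 (adjusted p = 0.0916). None of 9 tested GABA receptor and synapse genes was called, and 2 of 33 voltage-gated channel genes were lower.

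On the presynaptic side, 25 tested genes had 3 rises and 4 falls. Cplx2, which encodes complexin 2, a clamp of vesicle fusion, had 200.1, 193 and 184 CPM in Ctrl and 115, 123 and 116 CPM in Model (-0.71 ± 0.12, adjusted p = 3.47e-06). Syt11, a synaptotagmin gene that does not bind calcium, fell by 0.71 (adjusted p = 4.94e-07). Syn3, the gene of a minor synapsin, rose from 27.4, 24.8 and 25.8 to 64.6, 55.8 and 68 CPM (1.27 ± 0.22, adjusted p = 4.21e-06), but it overlaps Timp3 and Fbxo7, which went from 7 to 4 and from 31 to 18 counts. Snap25, the SNARE gene, was called at 0.24 ± 0.07 and lost that call without Model 1 or Model 3 (adjusted p = 0.075 and 0.0659). Canx, which encodes the chaperone calnexin of the secretory pathway, fell from 253, 253 and 261 to 142, 129.7 and 161 CPM (-0.81 ± 0.11, adjusted p = 5.36e-09).

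Among insulin and growth factor genes, a ligand and a carrier were among the falls. Of 21 tested insulin and IGF genes 4 fell and 1 rose, with a median of -0.12. Igf2, insulin-like growth factor 2, had 94.1, 103 and 131 CPM in Ctrl and 9.45, 8.21 and 10.7 CPM in Model, groups that lay far apart (-3.48 ± 0.34, adjusted p = 1.81e-22). Both Igf2 and Igfbp2 also stand in the choroid plexus list, whose sum was lower in the same libraries. The receptors themselves were too scarce to be tested: Insr had 6 counts in Ctrl and 2 in Model, and Igf1r had 5 and 1. Of 12 tested neurotrophin and growth factor genes 2 rose and 3 fell, with a median of -0.58. Of the heparin-binding family, Ptn, pleiotrophin, had 319, 323 and 283 CPM in Ctrl and 198, 229.8 and 184 CPM in Model (-0.61 ± 0.10, adjusted p = 2.00e-06), and Mdk, midkine, fell by 1.24 (adjusted p = 7.23e-07). The third fall was that of Ptprz1, a receptor gene for both, which lost its call without Ctrl 2 or Model 2 (adjusted p = 0.175 and 0.172). The rises were those of Vgf, a secreted neuropeptide precursor gene, from 148, 159 and 139 to 189, 220.0 and 200.1 CPM (0.44 ± 0.11), and of Ntrk2, the BDNF receptor gene, from 67.9, 66 and 66.7 to 113, 93.6 and 89.4 CPM (0.56 ± 0.16). Neither overlapped between the groups, but Ntrk2 lost its call without Model 1 (adjusted p = 0.0924). Bdnf, the neurotrophin gene often studied in depression, was at 21.4, 29.5 and 23.1 CPM in Ctrl and 22, 16.4 and 8 CPM in Model and was not called (-0.71 ± 0.32, adjusted p = 0.145).

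Among genes of the stress steroid response, Nr3c2, which encodes the mineralocorticoid receptor, the high-affinity receptor for corticosterone in the hippocampus, had 50.0, 59 and 51.7 CPM in Ctrl and 31.5, 23 and 24 CPM in Model. The highest Model library lay below the lowest Ctrl library, and the log2 fold change was -1.04 ± 0.24 (adjusted p = 5.52e-04). Nr3c1, the glucocorticoid receptor gene, had 31, 31.8 and 31.3 CPM in Ctrl and 20.5, 19.7 and 21.3 CPM in Model, groups that did not overlap, but it was not called (-0.61 ± 0.28, adjusted p = 0.146). Of the receptor's target genes, Fam107a rose from 183, 197 and 205 to 289.7, 264 and 300.1 CPM (0.55 ± 0.10, adjusted p = 1.69e-05), while Fkbp5, the target that restrains the receptor, had 31, 33 and 29.9 CPM in Ctrl and 25.2, 34.5 and 34.7 CPM in Model. In all, 1 of 14 tested members rose and 1 fell. Of 10 tested immediate early genes 1 was called lower, the transcription factor gene Egr1 (-0.91, adjusted p = 0.0497). That call was lost in 16 of 20 settings, among them leaving out any 1 of 5 libraries (Ctrl 1 was the exception), with an adjusted p of up to 0.337. Nr1d1, the clock repressor gene, was at 0.29 ± 0.07 (adjusted p = 8.22e-04). It overlaps Thra, the thyroid hormone receptor gene on the other strand, which was at 0.19 ± 0.08 and was not called, and it lost its call when a fold of at least 1.2 was asked for (adjusted p = 0.558).

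Further rises lay in other genes. LOC102546590, a locus with no other name in the table, had 52.4, 47.2 and 68 CPM in Ctrl and 444, 483 and 407 CPM in Model, a 7.98-fold rise (adjusted p = 1.66e-41). Necab1, a neuronal calcium-binding protein gene, had 1979.6, 1961 and 2299 CPM in Ctrl and 3771, 3658 and 3705 CPM in Model (0.84 ± 0.07, adjusted p = 5.29e-19). Each Model library stood above the highest Ctrl library. Camk2n1, an inhibitor of the kinase CaMKII, rose from 233, 295 and 328 to 386, 417 and 435 CPM (0.54 ± 0.09, adjusted p = 4.74e-06). Both belong to the list of calcium buffers and calcium-dependent enzymes, in which they were the 2 rises among 27 tested genes, against 6 falls and a median of -0.14. The falls were those of the kinase genes Camk2a, Camk2b and Camkk2, the calcineurin genes Ppp3ca and Ppp3cb and the calcium pump gene Atp2b1, from -0.77 for Camkk2 to -0.25 for Camk2b, and each lost its call in at least 2 settings. Ppp3ca, a catalytic subunit gene of calcineurin, had 318, 317 and 337 CPM in Ctrl and 250.4, 245 and 251 CPM in Model, groups that did not overlap. Hspa1a, the inducible HSP70 gene, had 44.1, 46 and 34 CPM in Ctrl and 134, 100.1 and 93.4 CPM in Model (1.38 ± 0.18, adjusted p = 8.00e-10), but of 33 tested heat shock and endoplasmic reticulum genes only 2 rose and 3 fell.

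Several called genes overlap or lie near another gene, and where that gene is on the other strand the authors' strand setting bears on what was counted. For 126 of the rises RefSeq lists an overlapping gene on the opposite strand. Nr1d1 above is one of them, and 3 more are given here. Pced1b, an esterase-family gene, had 359.7, 364 and 399.9 CPM in Ctrl and 658, 584 and 647 CPM in Model (0.75 ± 0.08), and overlaps Amigo2, a marker gene of CA2 neurons, which had 11 and 8 counts. Hspa1a overlaps Hspa1l, which had 77 counts in Ctrl and 82 in Model. Lrsam1, a ubiquitin ligase gene, rose by 0.79 and overlaps Niban2, which was at 0.64 itself. For the genes named next, RefSeq does not list both strands or the genes do not overlap. Nnat, the imprinted neuronatin gene, rose by 0.63 and overlaps Blcap, which had 58 and 52 counts. The olfactory receptor genes Or2b4 and Or14c39, at 1.54 and 0.64, encode odorant receptors and lie within 5 kb of Dstnl1 and Folh1. Zfp57, an imprinting regulator gene that overlaps Mog, fell by 0.53 and stood at 3222, 3041 and 3633 CPM in Ctrl, above Mog at 133, 151 and 152 CPM. Of the 18 called genes of the myelin list 4, among them Mbp and Mag, overlap a gene that RefSeq lists on the opposite strand. The part of the strand in these values was not tested. Among the 3441 tested genes that have a listed strand and no overlapping gene listed on the opposite strand, 322 were called, 157 higher and 165 lower.

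The split of the calls varied with what RefSeq lists around a gene, and these differences were not tested. Of 1011 tested genes over 5 kb from any other gene, 30 were called higher and 82 lower, with a median of -0.12. Genes with a neighbour within 5 kb but no overlap had 118 rises and 95 falls of 2213, genes that overlap one on the opposite strand had 126 and 92 of 1577, and genes that overlap only genes of the same or unlisted strand had 68 and 81 of 1272. Of 496 tested genes with no name or no RefSeq match, 126 were higher and 33 lower, with a median of 0.14. The isolated genes held 9.41% to 9.69% of the counts of the Ctrl libraries and 8.59% to 8.74% of those of the Model libraries. Tested by themselves, with their own scaling, the isolated genes had 43 rises and 44 falls.

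Genes of energy supply, protein synthesis and turnover were called at shares near or below the 13.0% of all genes tested. Of 66 nuclear genes of oxidative phosphorylation 4 rose and 2 fell, with a median of 0.09 that became -0.01 with library totals. Cox6a1, a subunit gene of cytochrome c oxidase, was the member whose call held in every setting that tested it. It stood at 169, 160.3 and 186 CPM in Ctrl and 257, 238 and 247 CPM in Model (0.53 ± 0.11, adjusted p = 9.68e-05). Of 23 glycolysis and glucose transport genes 1 was called, of 33 proteasome genes none, and of 66 ribosomal protein genes 6 were higher and 1 lower. None of the ribosomal calls survived leaving out every library in turn. Of 37 translation factor genes 5 were lower and none higher, 13.5% against 13.0% of all genes tested, with a median of -0.09, and their sum was 4581 to 5038 CPM in Ctrl and 4033 to 4260 CPM in Model. The lower genes were Eef1a1, Eif3m, Eif4a1, Eif4a2 and Eif4g1, and for each there were at least 2 libraries whose removal ended the call. Among 22 cholesterol genes, the synthesis enzymes Hmgcs1 and Cyp51 fell by 0.59 and 0.96, with 149, 158 and 162 CPM in Ctrl and 107, 115 and 90.7 CPM in Model for Hmgcs1. Of 17 imprinted genes 4 rose and 3 fell, 41.2% against 13.0% of all genes tested. Cdkn1c, a cell cycle inhibitor gene, fell from 81 to 8 counts (-3.01 ± 0.53), and Ube3a, the ubiquitin ligase gene of Angelman syndrome, rose from 251, 291 and 375 to 576, 548 and 583 CPM (0.91 ± 0.09, adjusted p = 1.91e-14). Among genes linked to neurodegeneration 7 of 32 rose and 6 fell, 40.6% against the same 13.0%. Vps35, a retromer gene linked to Parkinson disease, fell from 84 to 29 counts (-1.24 ± 0.31, adjusted p = 0.00121), while Mapt, the tau gene, was not called at -0.14.

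**Figure D5:**
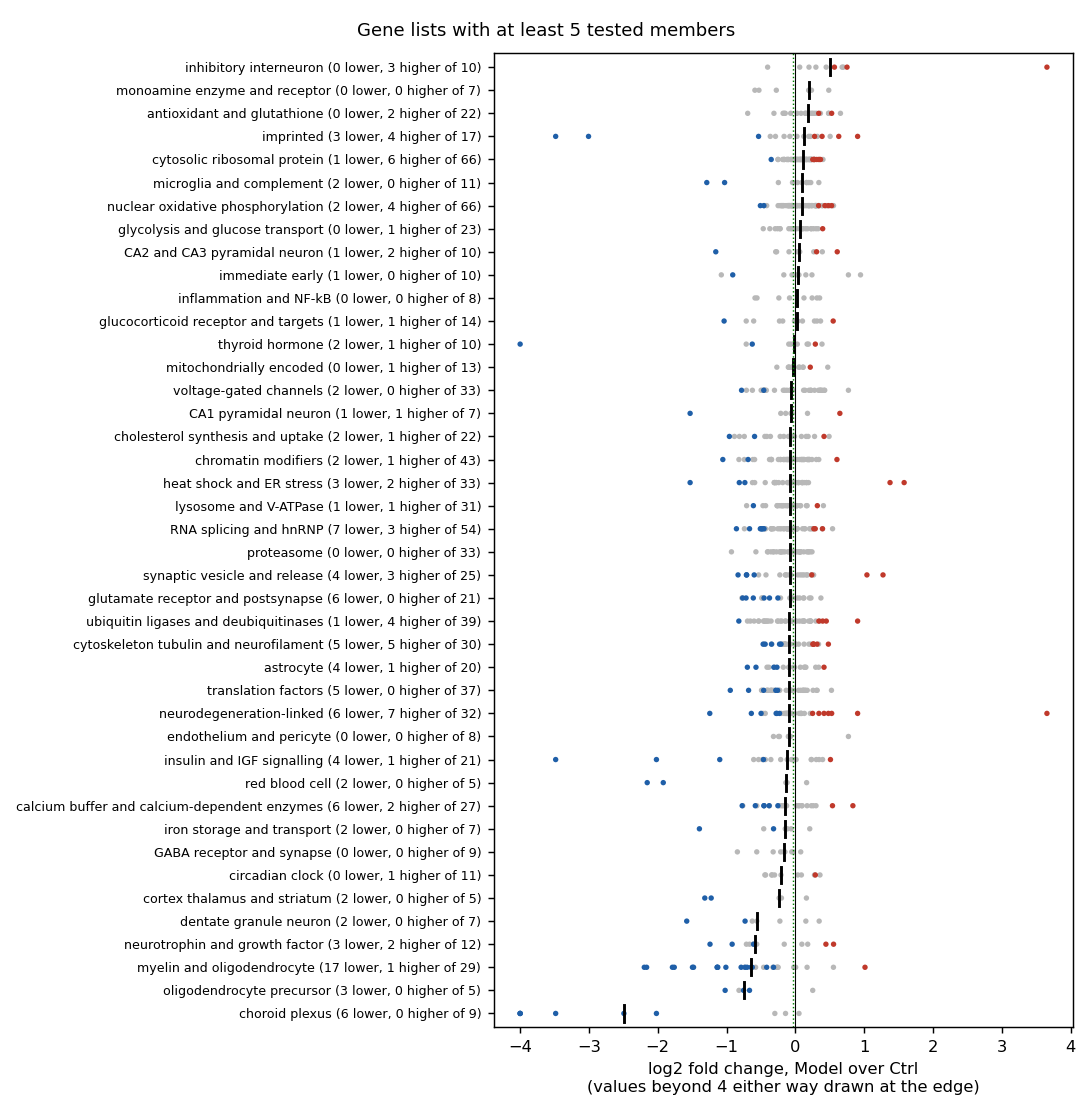
Log2 fold changes of Model over Ctrl (x axis) for every tested member of the 42 gene lists with at least 5 tested members, ordered by list median (black bar); blue members were called lower, red higher and grey were not called, and the dotted line is the median of all genes tested, -0.03. The choroid plexus, precursor and myelin lists stand lowest and the inhibitory interneuron list highest.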

How the data were processed

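RNA-seq of the rat hippocampal region was deposited as read counts per gene and as FPKM, per the file headers. Recomputing FPKM from the deposited counts, lengths and totals gave the authors' value in 100.0% of cells (relative tolerance 1e-09). The submitters' processing notes name HISAT2 and DESeq2, with no version. Which tool counted the reads, on which strand, and against which build and annotation is not given in the sources used here. Of 30562 genes, 4367 had no name, 23672 of 26195 names were matched to the RefSeq table of GRCr8, and 544 shared a symbol. No libraries were identical.

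The 3 Model and 3 Ctrl libraries (631119 to 807513 counts) were grouped by their labels and fitted with edgeR 4.0.16 in R 4.3.3: filterByExpr, TMM scaling, a coefficient per group, no covariate, robust glmQLFit (4 residual degrees of freedom) and two-sided glmQLFTest. P-values were adjusted by Benjamini-Hochberg over all 6569 genes, at a threshold of 0.05. The SE printed is the larger of that of the test and the counting error, and in 199 called genes the first was below the second, so those p-values may be too small. CPM are TMM-scaled. The script was tested on simulated data.

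The comparison, the 45 gene lists and the rule for named genes were chosen with earlier results of these data known. The rule takes the 12 smallest p and the 8 largest folds (at least 20 counts in the higher group) in each direction, up to 4 called members per list and direction, and 25 panel genes; the text gives mainly those whose calls held in every setting. Myelin members, neighbouring genes, scarce members and markers outside the rule were named after their values were seen. Results for a few genes are not reported here. Promoter letters were searched in the RefSeq table. The alternatives were other scalings, filters, models (DESeq2 1.42.0, limma 3.58.1), a replicate block, subsets of genes and leaving out each library.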

Additional observations from a re-analysis of the deposited data

How the results depend on the processing

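Among 22 alternative settings, 2 of which (a listed strand and no overlapping opposite-strand gene, no mitochondrially encoded genes) were chosen after seeing the data, no named gene changed direction. Of 146 named genes that were called, 62 kept the call in every setting that tested them and 84 lost it in at least 1. Some settings leave out genes, so not every gene was tested in all 22. The count of 851 called genes became 368 with DESeq2 (283 higher, 85 lower), 493 on log2(FPKM + 1) (169 higher), 463 on log2(FPKM + 0.1) (161 higher, 302 lower), 286 for a fold of at least 1.2 (137 higher, 149 lower), 87 among genes over 5 kb from another gene (43 higher, 44 lower) and 322 among genes with a listed strand and no overlapping opposite-strand gene (157 higher, 165 lower); the last 2 test fewer genes. With library totals 277 were higher and 620 lower. Leaving out 1 library gave 588 to 893 calls, 346 to 551 higher and 241 to 342 lower. With a replicate block 846 genes were called, 458 higher and 388 lower. Same-numbered libraries did not deviate together (correlations of -0.02, -0.02 and 0.04), so the numbers were not taken to pair samples, and not every library correlated best with its own number. Counts of 20 to 30 per library for the median tested gene limit what can be seen.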

Other observations

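Of the 851 called genes 136 carry no name in the files, 108 higher and 28 lower in Model, out of 396 such genes tested. The 2 rises with the smallest p were those of ENSRNOG00000064836, with 0, 2 and 0 counts in the Ctrl libraries and 68, 57 and 75 in the Model libraries, and of ENSRNOG00000065780, with 7, 5 and 5 against 69, 67 and 69. The 2 falls with the smallest p were those of ENSRNOG00000065111, from 34, 40 and 39 counts to 4 in each Model library, and of ENSRNOG00000070098, from 94, 84 and 93 to 30, 37 and 28. Neither pair overlapped between the groups.

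Tmem125, a transmembrane protein gene, has 2 identifiers in the table, and both fell: one from 1954 to 784 counts over the group and the other from 47 to 8. LOC100360413, the most abundant of the genes named by the smallest p among the rises, had 10860 counts in Ctrl and 13186 in Model. Mt-nd6 overlapped widely between the groups, with 12407, 22156 and 9918 counts in the Ctrl libraries and 19428, 12107 and 18712 in the Model libraries, and was not called.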
